A study of Homo sapiens with 12 samples.

Results

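The necroptosis kinases and the double-stranded RNA sensors around them were followed in 2 head and neck squamous cell carcinoma cell lines treated with IFNα, a type I interferon. The 6 genes were taken by symbol from the 60099 genes of the deposited table: ZBP1, ADAR, EIF2AK2 (which encodes the kinase PKR), RIPK1, RIPK3 and MLKL. The 10 transcripts of ADAR and the 9 transcripts of ZBP1 were taken from the 201521 deposited transcripts. The 12 samples came from Cal27 and HN30, both established lines, and carry the letters A to F with 2 replicates each, so that A1 is the first replicate of letter A. Untreated controls carry the letters A and D, cells kept for 24 h with 20 ng/ml IFNα the letters B and E, and those with 200 ng/ml the letters C and F. Letters A to C form one line set and letters D to F the other, and which set is which line was not used here. No other agent or genetic change is named for these samples, and the labels do not say whether replicates came from separate cultures, so p-values measure only the spread between these samples.

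ZBP1 is a cytoplasmic sensor that binds nucleic acid in the left-handed Z form. When engaged it recruits RIPK3 through a short interaction motif that RIPK1 also carries, and RIPK3 phosphorylates MLKL, which permeabilizes the plasma membrane in the form of cell death known as necroptosis. RIPK1 links death receptors to the same pathway, and caspase-8 restrains it. PKR binds double-stranded RNA and phosphorylates the translation factor eIF2α, which slows protein synthesis. ADAR deaminates adenosine to inosine in double-stranded RNA and is known to restrain both PKR and ZBP1. Its longer protein form, p150, carries a Z-binding domain and is the form known to be interferon-inducible, while the shorter form, p110, is made constitutively.

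Near the transcription start of many interferon targets lies the interferon-stimulated response element, a known binding motif of the factors that carry the type I interferon signal. RefSeq promoter windows on GRCh38.p14, from 250 bases before to 50 bases after each start, were searched on both strands for its core, GAAA followed by any 2 bases and GAAA, which occurred in 1255 of 35116 windows (3.57%). The windows were listed for 4 of the 6 genes, and ZBP1 and RIPK3 had no entry. The core was found in the single window of EIF2AK2, beginning 6 bases before the start, and in 2 of the 3 windows of RIPK1, which cover the same site in reverse orientation. It was not found in the 3 windows of ADAR or the single window of MLKL. None of the ADAR windows covers the start of ADAR-202, at position 154608186 of chromosome 1, so the sequence directly before that start was not searched. The gamma-activated site, TTC followed by any 3 bases and GAA, present in 2689 windows (7.66%), were found in none of these windows. The stretches that hold the core are shown with the match in capitals, since they are the promoter sequences of 2 genes whose levels are described next. A match describes letters only.
EIF2AK2, chr2:37156932-37157031, minus strand: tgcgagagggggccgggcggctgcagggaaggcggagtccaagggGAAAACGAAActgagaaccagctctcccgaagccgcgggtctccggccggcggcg
RIPK1, chr6:3068266-3068365, plus strand: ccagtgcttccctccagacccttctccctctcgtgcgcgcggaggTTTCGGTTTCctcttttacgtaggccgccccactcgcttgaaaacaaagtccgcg

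The ADAR forms differ in their start codons. ADAR-202 (ENST00000368474) begins at an upstream first exon, chr1:154607992-154608186 on the minus strand in GENCODE release 29, which holds the p150 start codon and 15 coding bases. ADAR-201 (ENST00000368471) begins at a more distant first exon, chr1:154627855-154627968, which is noncoding, and its start codon lies in the next exon. The first 30 coding bases of each form are shown with the start codon in capitals, because these starts distinguish the p150 and p110 proteins. The transcripts themselves differ in their first exons, of 195 bases in ADAR-202 and 114 bases in ADAR-201.
ADAR-202, p150, start at chromosome 1 position 154608006: ATGaatccgcggcaggggtattccctcagc
ADAR-201, p110, start at chromosome 1 position 154601756: ATGgccgagatcaaggagaaaatctgcgac
Beyond their first exons these transcripts are nearly the same sequence. ADAR-202 is 6610 bases long and ADAR-201 is 6519 bases long. Of the 6569 stretches of 31 bases in ADAR-202, 96.9% occurred in ADAR-201, and 98.3% of those in ADAR-201 occurred in ADAR-202.

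Total estimated counts per sample were between 10517448 and 16056734, and 19944 genes passed the filter on low counts, among them all 6. Levels per sample are given as CPM, estimated counts divided by the TMM-scaled library size, and levels of different genes are compared only in TPM, the deposited values that are also scaled for length. Fold changes are log2 values from edgeR's quasi-likelihood test. A gene rose or fell when its adjusted p was at most 0.05 over all genes tested, and was called when it also changed by at least 2-fold. All 12 genes of a core list of interferon targets were called at both doses. The 10 keratinocyte markers summed to between 2829 and 3463 TPM in A-C and, lower, to between 1393 and 1653 TPM in D-F. Of 10 immune cell markers 3 reached 1 TPM in any sample, and the list summed to between 12.4 and 20.8 TPM in A-C and between 8.62 and 43.7 TPM in D-F. PTPRC, which marks leukocytes, did not exceed 0.0425 TPM, while CD68, a lysosomal protein used as a macrophage marker, lay between 5.29 and 39.6 TPM and was called at both doses, with 1.32 on the log2 scale (SE 0.14, adjusted p = 0.0004387) at 20 ng/ml and 1.77 (SE 0.14, adjusted p = 4.331e-05) at 200 ng/ml. Of 8 fibroblast markers 4 reached 1 TPM, with sums between 7.36 and 16.0 TPM in A-C and between 43.2 and 51.2 TPM in D-F. The part of these genes in the results was not tested. Fewer cells of a kind and less RNA per cell cannot be told apart in such bulk samples.

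In the untreated cells the 6 genes spanned a wide range of levels. ADAR was highest, at 148 ± 27.2 TPM (SD, n = 4 controls), followed by EIF2AK2 at 101 ± 29.3 TPM. MLKL stood at 18.0 ± 6.41 TPM and RIPK1 at 16.6 ± 1.10 TPM. The order of neighbours depended on the line set: MLKL lay above RIPK1 in A, at 23.5 ± 0.431 against 17.4 ± 0.285 TPM (n = 2), and below it in D, at 12.5 ± 1.32 against 15.7 ± 0.789 TPM. ADAR lay above EIF2AK2 in A, at 171 ± 3.12 against 89.8 ± 4.19 TPM, whereas in D they stood at 124 ± 1.19 and 111 ± 45.7 TPM. ZBP1 was near the limit of detection at 0.311 ± 0.196 TPM. RIPK3 was listed at 0 in both controls of line set A-C and at 8.36 and 8.78 TPM in D1 and D2. At 200 ng/ml ADAR reached 342 ± 48.1 TPM and EIF2AK2 340 ± 132 TPM (n = 4). ADAR and EIF2AK2 stood at 371 ± 60.0 and 426 ± 147 TPM in C and at 313 ± 0.436 and 254 ± 22.5 TPM in F (n = 2). ZBP1 reached 40.0 ± 12.6 TPM, beside 34.4 ± 9.89 TPM for MLKL and 25.03 ± 3.26 TPM for RIPK1. In C it lay at 29.6 ± 5.56 TPM, beside 41.0 ± 10.8 for MLKL and 22.4 ± 1.93 for RIPK1. In F it lay at 50.3 ± 4.17 TPM, above MLKL at 27.8 ± 1.84 and RIPK1 at 27.6 ± 1.06.

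**Figure D1:**
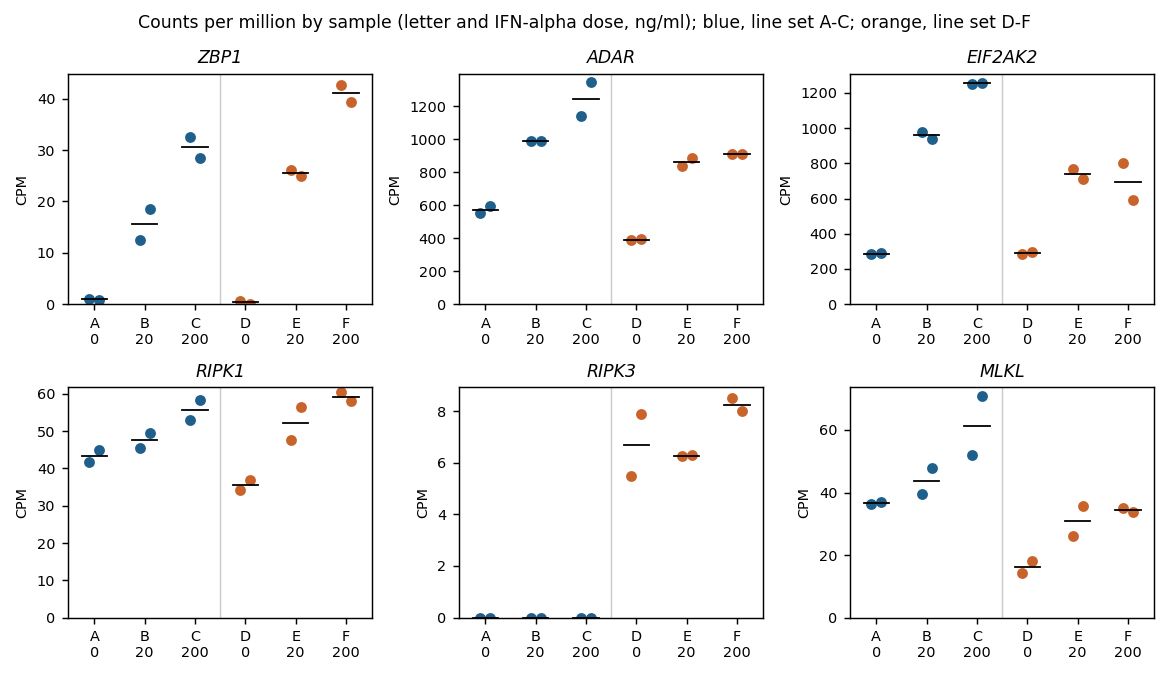
CPM of the 6 genes by sample; the horizontal axis gives the sample letter and the IFNα dose in ng/ml, points are replicates and black lines are means of 2. ZBP1 rises from at most 1.05 CPM in the 4 controls to at least 28.5 CPM at 200 ng/ml, and RIPK3 is at 0 in all 6 samples of line set A-C.

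ZBP1 (ENSG00000124256, chr20:57603846-57620576, minus strand, GRCh38) showed the largest change of the 6 genes. It stood at 1.05 and 0.775 CPM in A1 and A2 and at 0.596 and 0.0647 CPM in D1 and D2, which rested on 13, 12, 9 and 1 estimated counts. At 20 ng/ml it was at 12.5 and 18.6 CPM in B1 and B2 and at 26.1 and 25.05 CPM in E1 and E2. The higher dose brought it to 32.5 and 28.5 CPM in C1 and C2 and at 42.7 and 39.4 CPM in F1 and F2. The doses did not overlap within either line set. ZBP1 was called at 20 ng/ml, at 5.17 on the log2 scale (SE 0.30, adjusted p = 5.556e-06), and at 200 ng/ml, with 5.998 (SE 0.30, adjusted p = 1.41e-06). Leaving out each library in turn gave 5.57 (without D2) to 7.08 (without D1) at 200 ng/ml. The size in line set D-F leaned on D2 and its single count. At 200 ng/ml it was 6.93 (SE 0.45) on the log2 scale in that set with both controls, 6.08 without D2 and 9.09 without D1.

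EIF2AK2 (ENSG00000055332, chr2:37099210-37157065, minus strand), the gene of PKR, started from the same level in both line sets. Its controls lay at 282 and 292 CPM in A1 and A2 and at 284 and 294 CPM in D1 and D2. At 20 ng/ml it was at 981 and 938 CPM in B1 and B2 and at 766 and 713 CPM in E1 and E2. The higher dose gave 1250 and 1259 CPM in C1 and C2 and at 800 and 593 CPM in F1 and F2. Every treated sample lay above every control, and in CPM line set A-C reached higher levels than line set D-F at each dose. In TPM, B and E stood at 211 ± 46.6 and 230 ± 51.0 at 20 ng/ml (n = 2). EIF2AK2 was called at 20 ng/ml, at 1.55 on the log2 scale (SE 0.09, adjusted p = 3.32e-06), and at 200 ng/ml, with 1.70 (SE 0.09, adjusted p = 1.41e-06).

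ADAR (ENSG00000160710, chr1:154582062-154627999, minus strand) roughly doubled. It was at 550 and 594 CPM in A1 and A2 and at 386 and 394 CPM in D1 and D2. At 20 ng/ml it was at 991 and 992 CPM in B1 and B2 and at 841 and 886 CPM in E1 and E2. Under 200 ng/ml it was at 1143 and 1348 CPM in C1 and C2 and at 913 and 909 CPM in F1 and F2. No treated sample overlapped a control. ADAR rose at 20 ng/ml, by 0.97 on the log2 scale (SE 0.06, adjusted p = 7.721e-06), just short of the 2-fold limit, and was called at 200 ng/ml, with 1.17 (SE 0.06, adjusted p = 1.46e-06).

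MLKL (ENSG00000168404, chr16:74671855-74700960, minus strand), the pseudokinase that carries out necroptosis, rose less. It was at 36.3 and 36.9 CPM in A1 and A2, 39.5 and 47.8 CPM in B1 and B2, and 51.9 and 70.8 CPM in C1 and C2. In the other line set it was at 14.4 and 18.0 CPM in D1 and D2, 26.2 and 35.8 CPM in E1 and E2, and 35.0 and 33.9 CPM in F1 and F2. The treated samples lay above the controls of their own line set. MLKL rose at 200 ng/ml, by 0.91 on the log2 scale (SE 0.14, adjusted p = 0.003762), and missed the threshold at 20 ng/ml, with 0.59 (SE 0.14, adjusted p = 0.0505). Without C1 the change at 200 ng/ml was 1.01 and passed the 2-fold limit.

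RIPK1 (ENSG00000137275, chr6:3063991-3115187, plus strand), the kinase shared by death-receptor signalling and necroptosis, changed by the smallest amount among the genes that rose. It was at 41.7 and 45.1 CPM in A1 and A2, 45.6 and 49.5 CPM in B1 and B2, and 53.1 and 58.3 CPM in C1 and C2. In line set D-F it was at 34.2 and 37.0 CPM in D1 and D2, 47.7 and 56.6 CPM in E1 and E2, and 60.4 and 58.1 CPM in F1 and F2. Samples at 200 ng/ml lay above the controls in both sets. RIPK1 rose at 200 ng/ml, by 0.55 on the log2 scale (SE 0.08, adjusted p = 0.003214), whereas at 20 ng/ml it showed 0.34 (SE 0.08, adjusted p = 0.05402). The rises of MLKL and RIPK1 at 200 ng/ml held in 17 of 18 alternative fits each and were lost where the line set was left out of the model, with adjusted p = 0.6722 and 0.08394.

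RIPK3 (ENSG00000129465, chr14:24336021-24340045, minus strand), the kinase that phosphorylates MLKL, was the only one of the 6 genes without a detected response. All 6 samples of line set A-C had 0 counts, which allows up to 3 counts, or between 0.194 and 0.307 CPM, in each library. In line set D-F it stood at 5.50 and 7.89 CPM in D1 and D2, 6.25 and 6.28 CPM in E1 and E2, and 8.49 and 8.001 CPM in F1 and F2. On the log2 scale the change in D-F was -0.10 (SE 0.29, adjusted p = 0.955) at 20 ng/ml and 0.30 (SE 0.28, adjusted p = 0.6747) at 200 ng/ml. With A-C counted at 3 counts per library, RIPK3 was at least 30.8-fold higher in D-F than in A-C among controls, at least 27.4-fold higher at 20 ng/ml and at least 28.6-fold higher at 200 ng/ml. RIPK3 was one of 35 genes with 0 counts throughout A-C and at least 50 counts in each D-F sample, and 57 genes had the opposite pattern.

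At 200 ng/ml 5 of the 6 genes rose, against 4.98% of all genes tested, and 3 were called higher, against 1.58% of all genes. At 20 ng/ml 3 rose, against 2.33%, and 2 were called higher, against 0.963%. DESeq2 put the same 5 genes past an adjusted p of 0.05 at both doses. Both doses shared their control samples. For ZBP1, EIF2AK2 and ADAR the step from 20 to 200 ng/ml was small beside the step from control. By edgeR none of the 5 genes measured in both sets passed an adjusted p of 0.05 for this step, against 0.0903% of genes that did so upward, while 4 had an unadjusted p of at most 0.05 and DESeq2 passed 1. That gene was ZBP1, at 0.83 on the log2 scale (SE 0.21, edgeR adjusted p = 0.2775), the largest of the 5. The values for the others were 0.32 (SE 0.14) for MLKL, 0.21 (SE 0.08) for RIPK1, 0.20 (SE 0.06) for ADAR and 0.15 (SE 0.08) for EIF2AK2. For MLKL and RIPK1 the step was not small beside that from control. Against control in A-C, MLKL showed 0.25 at 20 ng/ml and 0.74 at 200 ng/ml, and RIPK1 0.13 and 0.36. In D-F the values were 0.93 and 1.09 for MLKL and 0.55 and 0.74 for RIPK1. The shares of all genes at an unadjusted p of 0.05, or past the DESeq2 threshold, are not given here.

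Within the line sets, ADAR, EIF2AK2 and ZBP1 passed an adjusted p of 0.05 in both sets and at both doses. In A-C these were 3 of the 5 detected genes at 20 ng/ml, against 0.913% of genes tested, and again 3 at 200 ng/ml, against 3.58%. In D-F 5 of the 6 genes passed at 20 ng/ml, against 2.15%, and at 200 ng/ml, against 3.44%. RIPK1 and MLKL passed narrowly there at 20 ng/ml, with 0.55 (SE 0.12, adjusted p = 0.03403) and 0.93 (SE 0.20, adjusted p = 0.03782). The alternative fits did not cover 20 ng/ml within a line set. The additional genes in D-F were RIPK1, at 0.74 on the log2 scale (SE 0.12, adjusted p = 0.005203) at 200 ng/ml, and MLKL, with 1.09 (SE 0.20, adjusted p = 0.01276). The corresponding values in A-C were 0.36 (SE 0.12, adjusted p = 0.09952) and 0.74 (SE 0.20, adjusted p = 0.05365). The MLKL result in D-F was lost without D1 (adjusted p = 0.1212), F1 (0.07237) or F2 (0.06753), and the RIPK1 result without D1 (0.06694). The difference between responses, D-F minus A-C, missed the threshold for both genes, at 0.38 (SE 0.16, adjusted p = 0.2735) for RIPK1 and 0.34 (SE 0.28, adjusted p = 0.5761) for MLKL.

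**Figure D2:**
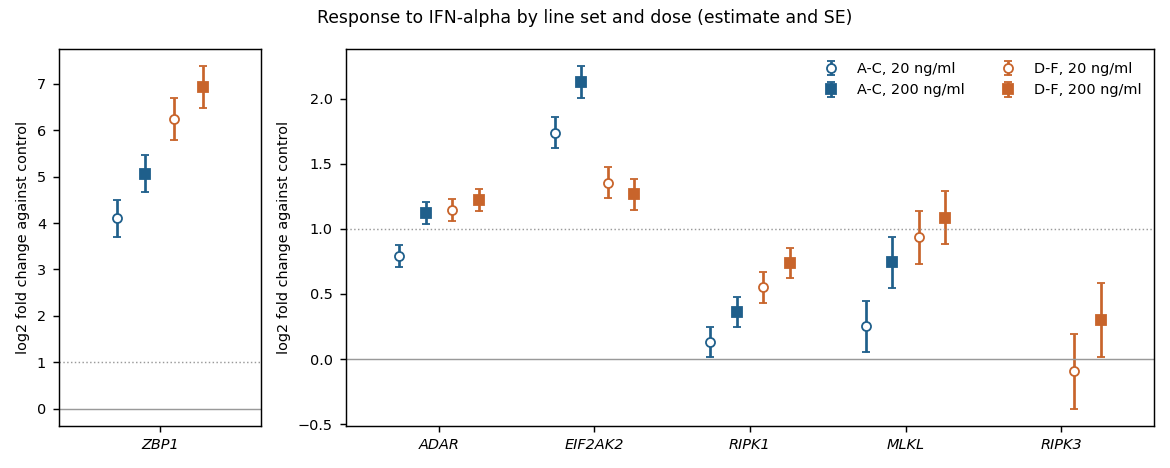
Log2 fold change against control by gene, line set and dose; points are estimates, bars are SE, open circles are 20 ng/ml, filled squares are 200 ng/ml and the dotted line marks 2-fold. ZBP1 lies above 4 in every case, EIF2AK2 is higher in A-C than in D-F, and RIPK3 could be estimated in D-F alone.

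Of the 5 genes measured in both sets, EIF2AK2 was the only one whose response to 200 ng/ml differed between them by adjusted p, with 3 at an unadjusted p of at most 0.05 and 1 past the threshold by DESeq2. On the log2 scale it rose by 2.13 (SE 0.12) in A-C and 1.27 (SE 0.12) in D-F, and the difference, D-F minus A-C, was -0.86 (SE 0.17, adjusted p = 0.03909). Across all genes 1.88% passed this test. The difference was between -1.09 and -0.68 over the 17 alternative fits and passed the threshold in 5 of them, with adjusted p between 0.0003162 and 0.1051, the highest without A2. ZBP1 pointed the other way, with 5.07 (SE 0.40) in A-C and 6.93 (SE 0.45) in D-F, and its difference of 1.86 (SE 0.67, adjusted p = 0.1902) missed the threshold and ran from 1.02 without D2 to 4.02 without D1. ADAR rose by nearly the same amount in both at 200 ng/ml, 1.12 (SE 0.08) and 1.22 (SE 0.08). At 20 ng/ml ADAR rose by 0.79 (SE 0.08) in A-C and 1.15 (SE 0.08) in D-F. That difference of 0.35 (SE 0.12, edgeR adjusted p = 0.3133) missed the threshold. For 20 ng/ml edgeR passed none of the 5 genes, against 0.371% of all genes, although all 5 had an unadjusted p of at most 0.05 and DESeq2 passed 1. For both doses the shares of all genes at that unadjusted p, or by DESeq2, are not given here. The unadjusted and DESeq2 counts thus have no background and are not read as differences between the line sets.

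The untreated line sets differed from each other in 46.4% of genes by adjusted p and in 26.6% when a 2-fold change was also required. Of the 6 genes 3 passed by adjusted p and 2 were called, RIPK3 and MLKL. Both counts lie near those shares of all genes. MLKL was lower in D-F, with a log2 difference of -1.18 (SE 0.20, adjusted p = 0.001059). ADAR was also lower in D-F, by -0.55 (SE 0.08, adjusted p = 0.0004747). EIF2AK2 showed 0.01 (SE 0.12, adjusted p = 0.9577), and ZBP1 showed -1.43 (SE 0.61, adjusted p = 0.0799), a value that was -3.61 without D1 and -0.59 without D2. The set with detectable RIPK3 was thus the set with the lower MLKL.

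The transcript values divided the ADAR signal unevenly. ADAR-201, the p110 transcript, held between 58.7% and 74.2% of ADAR TPM in 11 samples and 2.70% in A2. ADAR-202, the p150 transcript, held between 0.363% and 1.00% in the same 11 samples and 62.8% in A2. In estimated counts ADAR-201 had 5519 in A1 and 306 in A2, while ADAR-202 had 58 in A1 and 7228 in A2. The gene as a whole differed little between these samples, at 550 and 594 CPM. A2 thus carried the reversed division between the 2 transcripts that share almost all of their sequence, and no other sample, treated or not, did so.

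The p150 share therefore gave no comparison of doses beyond that sample. It averaged 16.2% ± 31.1 (SD, n = 4) in controls and 0.738% ± 0.251 (n = 4) at 200 ng/ml, a difference of -15.5 percentage points with p = 0.6667 (exact permutation test, two-sided, doses exchanged inside each set, 36 arrangements, smallest possible p 0.0556). Without A2 the difference was 0.02 percentage points (p = 0.9444, exact permutation test). Within D-F, where A2 has no part, it was 0.14 percentage points. The test of single transcripts followed the same sample. ADAR-201 showed a log2 change of 1.55 (SE 0.71, adjusted p = 0.5847) with all samples and was called at 1.09 (adjusted p = 0.0007492) without A2 and at 3.31 (adjusted p = 6.524e-06) without A1. ADAR-202 showed -1.67 (SE 0.99, adjusted p = 0.6759) with all samples, 1.18 (adjusted p = 0.4284) without A2, and was called lower at -2.16 (adjusted p = 0.02858) without A1.

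**Figure D3:**
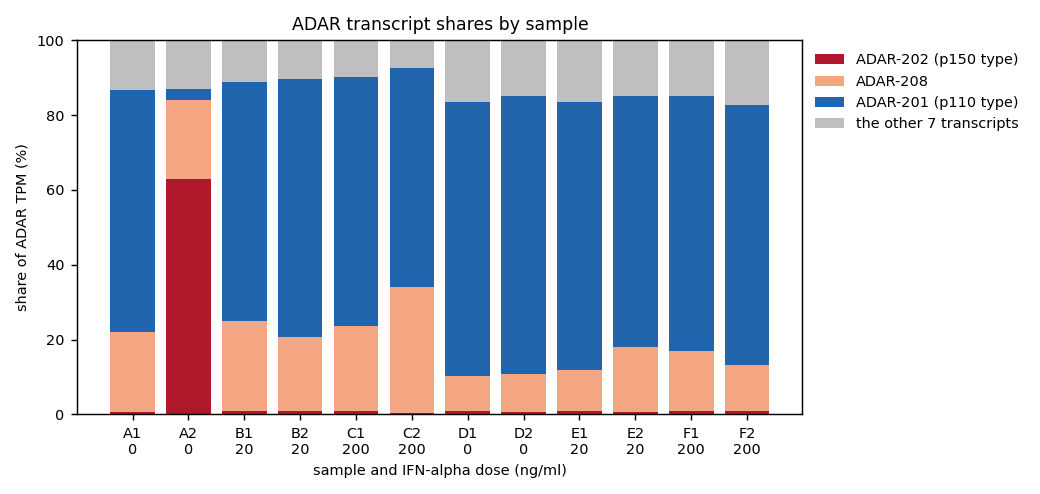
Share of ADAR TPM (%) by transcript in each sample; the horizontal axis gives the sample and the IFNα dose in ng/ml, and the grey part holds the other 7 transcripts. ADAR-202 takes 62.8% in A2 and at most 1.00% in the other samples.

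The transcript ADAR-208 (ENST00000529168), held between 9.54% and 33.6% of ADAR TPM. It had 1007 and 1328 estimated counts in A1 and A2, 1955 and 1881 in B1 and B2, and 1936 and 3076 in C1 and C2. In D-F it had 369 and 409 in D1 and D2, 740 and 1318 in E1 and E2, and 1194 and 931 in F1 and F2. Treated samples lay above the controls of their line set. It was called at 200 ng/ml, at 1.61 on the log2 scale (SE 0.24, adjusted p = 0.03911), against 0.343% of 75876 transcripts tested that were called higher. The adjusted p passed in 5 of 18 alternative fits. Its form is uncertain, because the deposited position, chr1:154584809-154602626, does not reach the p150 start codon, whereas GENCODE release 29 places it at chr1:154582230-154608170 with that codon. If it was counted as p150, a choice made after its values were seen, the difference in the p150 share was -9.93 percentage points (p = 1.0, exact permutation test), again with A2 included. This wider share was not tested without A2. In D-F, where A2 has no part, ADAR-208 held 9.54% and 10.2% in D1 and D2 and 16.1% and 12.3% in F1 and F2. It held 21.5% in A1 and 22.9% and 33.6% in C1 and C2. ADAR-202 held at most 0.899% in these samples, so outside A2 the wider share was higher at 200 ng/ml.

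Of the other ADAR transcripts that passed the filter, none was called by edgeR at 200 ng/ml, although 2 had an unadjusted p of at most 0.05. The share of all transcripts at that unadjusted limit is not given here. ADAR-203, a retained-intron transcript, came nearest, with 1.05 (SE 0.21, adjusted p = 0.1126, unadjusted p = 0.001104), and DESeq2 called it (adjusted p = 9.211e-06), though DESeq2 calls of transcripts are not relied on here, because most of those it made on simulated data were false. ADAR-204, ADAR-205, ADAR-209 and ADAR-210 had log2 fold changes of -0.31, 0.48, 0.56 and 0.97, with SEs between 0.29 and 0.48. ADAR-206 and ADAR-207 had at most 8 estimated counts in any sample and were not tested.

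ZBP1 transcripts were counted from the same reads as the gene, so their rise is not separate support for its rise. ZBP1-202 (ENST00000395822), a protein-coding transcript of 7 exons, had 0 counts in all 4 controls. It had 50 and 46 estimated counts in B1 and B2, 124 and 132 in C1 and C2, 90 and 83 in E1 and E2, and 110 and 78 in F1 and F2. Against 3 counts per control library this was at least 16.9-fold higher at 20 ng/ml and at least 56.7-fold higher at 200 ng/ml in A-C, and at least 36.2-fold and 39.3-fold higher in D-F. It was called at 20 ng/ml (adjusted p = 0.002844), where 0.24% of transcripts were called higher, and at 200 ng/ml (adjusted p = 0.001839), which held in 17 of 18 alternative fits and was lost with replicate numbers as a block (adjusted p = 0.06988). ZBP1-205 (ENST00000461547), which retains an intron, was likewise called at both doses (adjusted p = 0.03745 and 0.01859), with 7, 9, 0 and 1 counts in the controls and between 25 and 125 in the treated samples. ZBP1-204 and ZBP1-209 were called at 200 ng/ml (adjusted p = 0.02817 and 0.04745) from 0 counts in all controls and at most 34 in any sample. The calls for ZBP1-205, ZBP1-204 and ZBP1-209 passed in 8 of 18, 4 of 18 and 1 of 16 alternative fits.

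ZBP1-201 (ENST00000371173), the protein-coding transcript of 8 exons, was present in most treated samples and uneven among replicates. It had 5 and 0 estimated counts in A1 and A2, 0 and 126 in B1 and B2, and 82 and 34 in C1 and C2. In D-F it had 9 and 0 in D1 and D2, 60 and 139 in E1 and E2, and 174 and 169 in F1 and F2. B1 and B2 thus shared a dose and a line set and lay at opposite ends. It showed 5.08 at 200 ng/ml (SE 1.76, adjusted p = 0.458) on the log2 scale. ZBP1-208 varied in the same way, with 96 and 21 counts in C1 and C2 and 87 and 8 in E1 and E2, and gave adjusted p = 0.2554. ZBP1-206 gave adjusted p = 0.274. DESeq2, with the same reservation, passed ZBP1-201 (adjusted p = 0.04338), ZBP1-206 (0.005142) and ZBP1-208 (0.0005496). The transcripts ZBP1-203 and ZBP1-207 had at most 6 counts in any sample and were not tested.

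**Figure D4:**
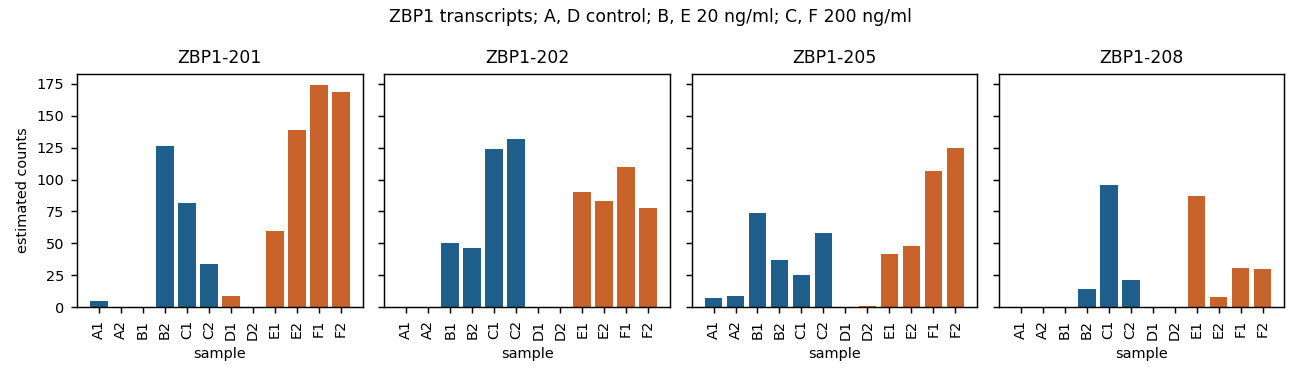
Estimated counts of 4 ZBP1 transcripts by sample; blue bars are line set A-C and orange bars line set D-F. ZBP1-202 is at 0 in the 4 controls and between 46 and 132 in every treated sample, while ZBP1-201 and ZBP1-208 differ widely between replicates.

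Replicates of EIF2AK2 that were level in CPM differed in gene TPM, and the cause was not tested. C1 and C2 differed in TPM, at 323 and 530, while they stood at 1250 and 1259 CPM, and D1 and D2 were at 79.0 and 144 TPM with 284 and 294 CPM. The ratio of TPM to CPM varied by 2.69-fold over the 12 samples for EIF2AK2, 3.12-fold for ZBP1 and 1.197-fold for ADAR. The EIF2AK2 transcripts were looked at after these values were seen. ENST00000405334 had 0 estimated counts in A1, B1, C1, D1 and F2 and between 65 and 2105 in the other samples, with 2105 in C2. The most abundant transcript, ENST00000233057, was called at 200 ng/ml, at 1.69 on the log2 scale (SE 0.21, adjusted p = 0.01648).

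Genes of the wider necroptosis pathway moved in part. At 200 ng/ml 14 of 53 genes of a necroptosis list rose, against 4.98% of all genes, 2 fell, and 3 were called higher, against 1.58%. For genes that fell, the share of all genes is not given here. The median log2 fold change of the list was 0.14, beside -0.01 over all genes. The 3 called genes were TNFSF10, which encodes the death ligand TRAIL, at 2.91 (SE 0.26, adjusted p = 0.0001082), TRIM21, an interferon-inducible ubiquitin ligase, at 1.97 (SE 0.08, adjusted p = 1.667e-07), and TLR3, a receptor for double-stranded RNA, at 1.86 (SE 0.18, adjusted p = 0.0002069). At 20 ng/ml the same 3 genes were called, against 0.963% of all genes, and 11 of 53 rose, against 2.33%.

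CFLAR, which encodes the caspase-8 regulator c-FLIP, rose by 0.98 (SE 0.13, adjusted p = 0.001321), and CASP8 itself rose by 0.63 (SE 0.09, adjusted p = 0.002432). FADD, an adaptor on the same list, rose by 0.31 (SE 0.08, adjusted p = 0.04454). TNFAIP3 and BIRC3, regulators of RIPK1 ubiquitination, rose by 0.97 and 0.86. Other regulators on the list did not pass, namely BIRC2, CYLD, OTULIN, CHUK, IKBKB, IKBKG and MAP3K7, with log2 fold changes between -0.30 and 0.42 and adjusted p between 0.06039 and 1. TICAM1, which links TLR3 to RIPK3, showed -0.19 (SE 0.17, adjusted p = 0.568). The genes that fell were PGAM5, at -0.38 (SE 0.08), and RIPK4, at -0.32 (SE 0.06).

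Of 32 genes of the PKR and integrated stress response list 2 rose and 3 fell at 200 ng/ml. Across all genes 4.98% rose, and the share that fell is not given here. The list had a median of -0.0029, beside -0.01 over all genes. Its genes past the threshold changed little, from -0.50 for PPP1CA, a phosphatase subunit, to 0.33 for PPP1R15B, which directs that phosphatase to eIF2α. The other eIF2α kinases showed -0.04 (SE 0.08) for EIF2AK1, 0.30 (SE 0.12) for EIF2AK3 and -0.06 (SE 0.07) for EIF2AK4, with adjusted p between 0.1679 and 0.8018. EIF2S1, which encodes eIF2α, showed 0.17 (SE 0.05, adjusted p = 0.07658), DNAJC3, an inhibitor of PKR, 0.08 (SE 0.07, adjusted p = 0.5208), and PPP1R15A, the stress-induced phosphatase subunit, 0.07 (SE 0.09, adjusted p = 0.7416).

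Among the genes next to ADAR, 23 of 25 on a list of RNA editing and double-stranded RNA binding passed the filter. Of these 2 rose and 1 fell at 200 ng/ml, beside 4.98% of all genes that rose. How many of all genes fell is not given here. The list had a median of -0.07, beside -0.01 over all genes. PNPT1, a mitochondrial exoribonuclease that degrades RNA, was called at 1.83 (SE 0.06, adjusted p = 6.813e-08). TNPO1, a nuclear import receptor, rose by 0.29 and STRBP, an RNA-binding protein, fell by 0.29. ADARB1, the second catalytic adenosine deaminase, showed -0.27 (SE 0.16, adjusted p = 0.357).

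**Figure D5:**
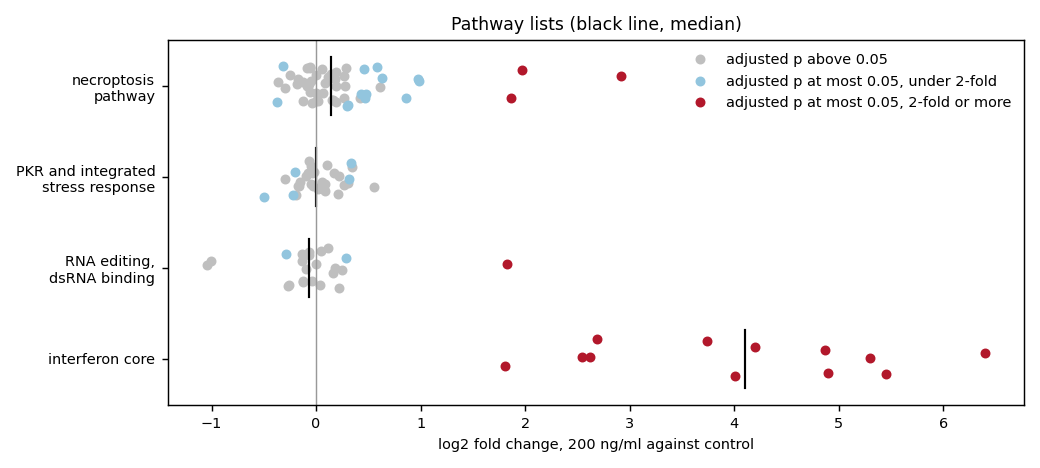
Log2 fold change at 200 ng/ml against control for the genes of 4 lists; each point is a gene, colour gives its test result and black lines are medians. Medians lie at 0.14 for necroptosis, -0.0029 for the PKR list, -0.07 for RNA editing and 4.10 for the interferon core.

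The genes most like each of the 6 across the 12 samples were found by Pearson correlation of log2(CPM + 1) over 19943 genes, as a description of samples that share doses and line sets. ZBP1 was most like IFIT1, LGALS9 and PARP14, with r between 0.992 and 0.993. ADAR was most like PARP9, EPSTI1 and DHX58, with r between 0.982 and 0.986. EIF2AK2 was most like CHMP5, TRIM69 and SP100, with r between 0.964 and 0.972. The genes nearest to MLKL were CLSPN, RFWD3 and DBR1, with r between 0.966 and 0.971, and those nearest to RIPK1 were HBEGF, ARRDC3 and STC2, with r between 0.943 and 0.960. RIPK3 was nearest to SMIM19, ARIH2 and an unnamed assembled gene at r = 0.999, each of which separates the line sets.

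Overlaps with other genes that had more than 1 count were few. EIF2AK2 overlaps the end of GPATCH11 by 35 bases on the opposite strand. RIPK1 overlaps AL031963.3, on the opposite strand, which had at most 10 counts in a sample, and RIPK3 overlaps AL096870.1, on the same strand, which had at most 2. ADAR, ZBP1 and MLKL overlap no other gene of the table. Reads at the overlap of opposite strands can be told apart only where counting used the strand, which is not given in the sources used here.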

How the data were processed

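Total RNA of Cal27 and HN30 cells was sequenced by the authors after rRNA removal with a strand-specific protocol. The submitters' processing notes name Trimmomatic 0.36, HISAT2 2.1.0, StringTie 1.3.3b and GRCh38.p10. The authors deposited a whole-number estimated count for genes and transcripts, without scaling, and TPM values scaled for length and depth. Deposited FPKM values were not used. An estimated count of a transcript rests on how reads were divided between transcripts that share exons, so an error there can move transcript values and the gene TPM, while the gene count stays the same.

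Estimated counts were tested with edgeR 4.0.16 in R 4.3.3 (TMM, filterByExpr, quasi-likelihood test, Benjamini-Hochberg adjustment) in 1 fit with a mean for each of the 6 letters, and dose effects were averaged over the line sets. RIPK3 was compared only within D-F or between line sets, because A-C held no counts. SEs were taken from the change and its F statistic. The common spread (biological coefficient of variation) of genes was 0.196, and that of transcripts was 0.837. Folds against groups whose libraries all had at most 3 counts are lower bounds. DESeq2 1.42.0 was an alternative. The fits were tested on simulated data. The gene fits recovered most of the altered genes. The edgeR transcript fit recovered none of the altered transcripts at folds of moderate size and only part of them at far larger folds, with few false calls, so a transcript that missed the threshold is not shown to be unaltered. Most DESeq2 calls of transcripts were false, and they are not relied on. Floors cover counting error only, while SEs also hold the spread between replicates.

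The 6 genes and the lists were chosen with earlier results of these data known. Named besides them were the ADAR and ZBP1 transcripts, 11 chosen pathway genes, up to 6 called genes per list with the largest change, and the 3 genes most like each gene; other list genes past the threshold and EIF2AK2 transcripts were named after their values were seen. Promoters came from RefSeq (GRCh38.p14) and transcript sequences from GENCODE release 29, which places some transcripts otherwise than the deposited table. A planned comparison of the proteins was not made, since no protein sequences were used here. Same-numbered replicates did not deviate together (r between -0.0428 and 0.0558), so the numbers were not taken to pair samples. Replicates within a letter differed by more than sampling noise, with a chi-square per degree of freedom between 14.4 and 19.9. Tables and exact tests were made in Python 3.11.15 (numpy 2.4.6, pandas 2.3.3), and plots with matplotlib 3.10.9.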

Additional observations from a re-analysis of the deposited data

Results flagged for a closer look

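By edgeR with all samples, the response of EIF2AK2 to 200 ng/ml IFNα differed between the line sets, with a log2 fold change lower by 0.86 in D-F than in A-C (difference -0.86, SE 0.17, adjusted p = 0.03909). It was taken up because the test of the difference itself passed an adjusted p of 0.05. F1 and F2 stood at 800 and 593 CPM and C1 and C2 at 1250 and 1259 CPM, from controls between 282 and 294 CPM. The difference passed in 5 of 17 alternative fits, with adjusted p between 0.0003162 and 0.1051 (the highest without A2) and 0.07325 with the replicate block. Without F1 the difference was -1.09 (adjusted p = 0.008432). The size stayed under 2-fold with all samples.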

How the results depend on the processing

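Over the alternatives the numbers of the 6 genes that were called stayed at 2 for 20 ng/ml and at 3 for 200 ng/ml, except that with no fold limit 3 passed at 20 and 5 at 200 ng/ml, and that 4 were called at 200 ng/ml without C1. Leave-one-out fits gave 2 genes throughout at 20 ng/ml and between 3 and 4 at 200 ng/ml. Pathway genes called numbered 4 at each dose, 24 at 200 and 14 at 20 ng/ml with no fold limit, and between 4 and 6 at 200 and 4 throughout at 20 ng/ml in leave-one-out fits.

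Over all genes, calls at 200 ng/ml numbered 426, at 20 ng/ml 229, for 200 against 20 ng/ml 9, for the difference between responses 199, between controls 5310 and for transcripts 375. With no fold limit the gene counts were 1905, 784, 27, 375 and 9261 in that order. With an unadjusted p they were 846, 649, 378 and 1253, and 4800 transcripts. Without the line set in the fit they were 96, 68 and 0, and 105 transcripts. DESeq2 gave 43 for 200 against 20 ng/ml, 367 for the difference between responses and 2203 transcripts, a count not relied on. No filter gave 17 for 200 against 20 ng/ml and 241 transcripts, and fits of the compared groups alone gave 100 for the difference and 167 transcripts. Leave-one-out counts ran from 334 to 497, 199 to 245, 3 to 41, 74 to 339 and 4675 to 5478 for genes and from 190 to 562 for transcripts, with 41 and 339 both reached without C1 and 190 without D2.

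With the replicate number as a block, though the numbers did not pair the samples, 0 genes were called for 200 against 20 ng/ml, 69 for the difference between responses and 87 transcripts. Under that block the calls for ADAR-208 (adjusted p = 0.193), ZBP1-202 (0.06988), ZBP1-204 (0.2205), ZBP1-205 (0.1292) and ZBP1-209 (0.3637) and the EIF2AK2 difference (0.07325) were lost, and MLKL passed at 20 ng/ml (0.04437). No other call for the 6 genes changed among the comparisons refitted, which left out 20 ng/ml within a line set.

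The p150 share difference of -15.5 percentage points turned to 0.14 within D-F and ran from -20.7 to 0.0242 in leave-one-out, the latter without A2. It was -19.4 as a share of counts, -17.9 over protein-coding transcripts and -31.2 within A-C. In leave-one-out fits ADAR-202 (ENST00000368474) ran from -2.16 to 1.18, the latter without A2. Differences near 0 also changed sign, since the ADAR difference between responses ran from -0.0077 (without C1) to 0.226, and the EIF2AK2 difference between controls from -0.0188 (without A1; -0.0157 without D2) to 0.0346. The cause was not tested. The 2 replicates per letter limit the precision, more so for transcripts than for genes.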
